A study of Homo sapiens with 12 samples.

Results

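Collagens are the rope-like proteins of the extracellular matrix, and each is built from chains that wind around one another into a triple helix. The genes of these chains, named COL, a type number, A and a chain number, were followed here in 293T, an established cell line from human embryonic kidney, after knockout of ARID1A. All 44 gene names of this form in the count tables, which hold 60645 gene names, were taken. Of these, 29 were measured, with a mean of at least 1 in CPM units (counts divided by library size) over all libraries, and 15 lay below that level. A filter on low counts kept 38 of the 44 for testing, 9 of them below 1 CPM. PolyA RNA was sequenced from 6 groups of 2 libraries each. The knockout cells, of the line labelled 12KO, had been given an empty vector (no ARID1A), wild-type ARID1A (WT) or ARID1A without its IDR1b segment (ΔIDR1b), and with each of these a second empty vector or EWS-FLI1. The labels mark all of these as O/E (overexpression). For the EWS-FLI1 libraries the labels give 2 µg of pcDNA-EWS-FLI1 plasmid and 48 h of growth after transfection. For the libraries with the second empty vector they state neither an amount nor a time. All groups share the knockout, and no group is of cells with their own ARID1A. The labels do not say whether 12KO is 1 clone or whether the libraries of a group came from separate cultures, so p-values measure only the spread between these libraries. The stated question was what IDR1b does in transcription driven by EWS-FLI1.

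ARID1A belongs to the BAF (SWI/SNF) complexes, which move nucleosomes and open chromatin, and EWS-FLI1 is the fusion transcription factor of Ewing sarcoma. Fibrillar collagens form the banded fibres of skin, bone and cartilage, type IV collagens form the sheet-like network of basement membranes, and type VI collagen forms beaded filaments. FACIT collagens sit on the surface of fibrils, and type VII anchors basement membranes to the tissue below. Chains are hydroxylated and folded in the endoplasmic reticulum, exported in large COPII carriers, trimmed outside the cell and crosslinked by lysyl oxidases.

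The libraries held from 11702251 to 14445379 counts, so that a count of 0 allows a level of up to 0.208 to 0.256 CPM, a limit that covers counting error only. ARID1A stood at 156 ± 12.1 CPM (SD, n = 2) without ARID1A and an empty vector, at 2056 ± 25.8 with WT and at 2787 ± 130 with ΔIDR1b. With EWS-FLI1 its levels were 160 ± 3.68, 2067 ± 317 and 2615 ± 9.03 CPM. FLI1 had at most 2 counts in any library without EWS-FLI1, and 1759 ± 100, 3568 ± 151 and 1897 ± 13.2 CPM in the EWS-FLI1 groups without ARID1A, with WT and with ΔIDR1b. Of 10 markers of the HEK-293 background, 7 passed 1 CPM, led by VIM (576 CPM) and KRT8 (294 CPM). The endothelial and leukocyte marker lists had 0 of 5 and 0 of 4 genes above 1 CPM, and their summed levels ran from 0.256 to 2.22 and from 0.224 to 1.6 CPM. The endothelial sum moved with the states under EWS-FLI1, from 0.256 to 0.432 CPM without ARID1A, 1.36 to 1.81 with WT and 2.12 to 2.22 with ΔIDR1b, and was 0.446 to 1.94, 1.2 to 1.41 and 1.61 to 2.14 with the empty vector. The HEK-293 sum was 1070 to 1110, 1150 to 1240 and 952 to 1000 CPM with the empty vector, and 987 to 1050, 1170 to 1180 and 885 to 993 with EWS-FLI1. The part of either in the results below was not tested. The fibroblast list had 2 of 7 (LUM, 1.05, and PDGFRA, 1.01 CPM), with a sum of 1.97 to 5.24 CPM. Among 4 chondrocyte markers SOX9 (14.7 CPM) and MATN1 (1.19 CPM) passed and HAPLN1 had no count. In these bulk samples fewer cells that use a gene and less RNA per cell cannot be told apart.

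The libraries also differed in how their values ran with the GC content and the length of genes. The WT libraries with EWS-FLI1 stood furthest apart, since their deviations correlated with GC content across 10678 genes at -0.487 in repeat 1 and 0.423 in repeat 2, against -0.196 to 0.187 elsewhere. Long genes ran high in all 4 ΔIDR1b libraries (correlation of the deviation with log2 length 0.1 to 0.283) and low in the 8 others (-0.342 to -0.0202). The measured collagens are long and GC-rich, with a median exonic length of 9253 bases and a GC content of 58.8%, against 4152 bases and 49.8% over all genes tested. Counts from a fit with both trends removed are therefore given beside the main ones. These correlations are across genes, which are not independent replicates.

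The collagen transcripts made up 0.116 to 0.174% of all counts. Per exonic length (FPKM, which divides CPM by the gene's exonic length), the chains of type VI collagen led, with COL6A1 at 57.5 (range over 12 libraries 48.1 to 63.1) and COL6A2 at 37.4 (28.3 to 44.3), and these ranges did not overlap with each other or with any lower one. COL18A1, whose product is cleaved to endostatin, followed at 12.6 FPKM, and COL1A1, the α1 chain of type I collagen, at 9.71. The next 4 genes, COL4A2, COL27A1, COL23A1 and COL2A1, lay within 7.65 to 7.12 FPKM and their ranges overlapped, so their order does not stand out from the spread. The measured list ended with COL16A1, COL4A3 and COL6A6 at 0.233, 0.191 and 0.139 FPKM.

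**Figure D1:**
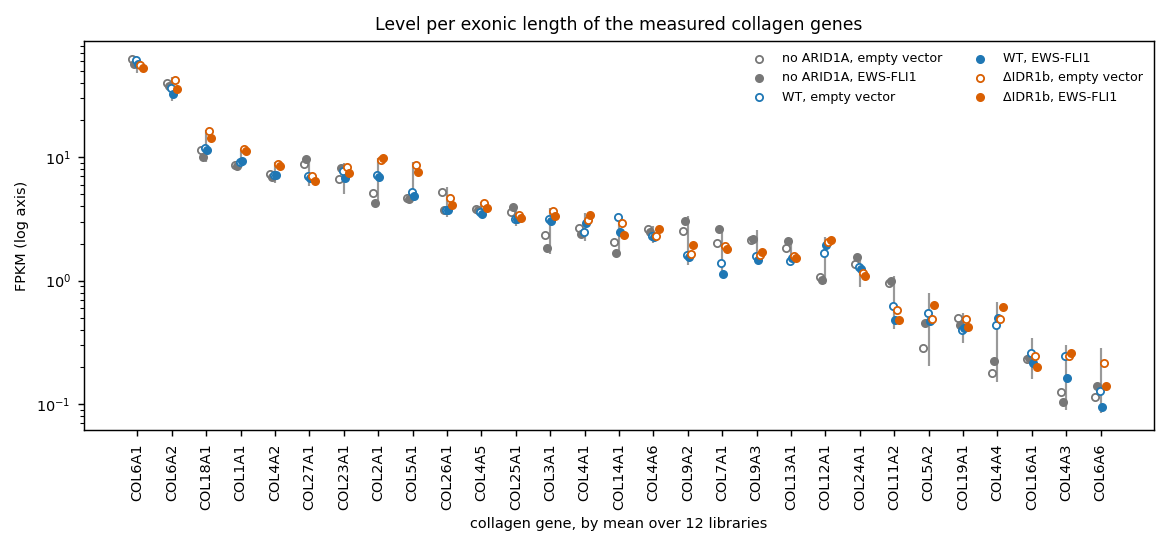
Mean FPKM of each of the 29 measured collagen genes in the 6 groups, on a log axis, with a grey bar from the lowest to the highest of 12 libraries. COL6A1 (57.5) and COL6A2 (37.4) stand above the rest, and COL6A6 (0.139) is lowest.

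Several chains were present without the partner they are known to assemble with. COL1A1 had 73.0 to 105.0 CPM, while COL1A2, the α2 chain of type I collagen, had 1 count in all 12 libraries together and 0 in 11 of them. COL6A3, the third chain of the main form of type VI collagen, had 3 to 17 counts per library, or 0.026 FPKM on average, beside the 2 chains that led the list. COL9A1 had 23 counts and COL11A1 13 counts over all libraries, while COL9A2 and COL9A3 stood at 2.06 and 1.79 FPKM and COL11A2 at 0.687. COL5A2 (0.479 FPKM) lay below COL5A1 (5.93 FPKM), the chain it combines with, and the ratio of COL5A1 to COL5A2 ran from 8.62 to 23.2 over the libraries. Other pairs of measured chains had ratios of 0.293 to 0.7 for COL4A3 over COL4A4, 1.3 to 1.82 for COL6A1 over COL6A2, 2.19 to 3.33 for COL4A2 over COL4A1, and 1.32 to 2.06 for COL4A5 over COL4A6, all per length.

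By class, the summed level of the fibrillar genes was 325 ± 1.1 CPM without ARID1A, 330 ± 0.534 with WT and 408 ± 13 with ΔIDR1b (empty vector, SD, n = 2). With EWS-FLI1 these sums were 329 ± 7.66, 320 ± 56.8 and 383 ± 9.22 CPM. The type IV genes summed to 252 ± 4.7, 247 ± 4.35 and 295 ± 6.15 CPM with the empty vector, and to 240 ± 15.2, 251 ± 27.9 and 295 ± 12 with EWS-FLI1. The FACIT genes summed to 71.5 ± 5.23, 87.5 ± 1.38 and 93.3 ± 2.36 CPM with the empty vector and to 68.1 ± 1.2, 84.7 ± 1.55 and 88.4 ± 3.73 with EWS-FLI1. The beaded filament genes, the class of type VI, had the largest sums, at 556 ± 0.553, 535 ± 25.1 and 535 ± 34.2 CPM (empty vector), or 517 ± 23.4, 492 ± 76.4 and 482 ± 65.9 when EWS-FLI1 was added. The fibrillar, type IV and FACIT means were highest with ΔIDR1b under each vector, the FACIT mean was also lowest without ARID1A, and the beaded filament mean was highest without ARID1A. These sums are dominated by the most abundant genes of each class and were not tested. The GC and length trends were left in them.

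WT ARID1A against no ARID1A asks what introducing the protein does to the knockout cells. With the empty vector, COL4A4, COL14A1, COL12A1 and COL2A1 were higher and COL7A1 was lower with WT, by log2 fold changes from -0.55 to 1.28. With EWS-FLI1 those 5 were called again in the same direction, COL3A1 and COL5A3 were higher in addition, and COL11A2, COL9A2 and COL27A1 were lower. In these EWS-FLI1 groups FLI1 was also higher with WT (3568 CPM) than without ARID1A (1759 CPM), and its part in the calls was not tested. In numbers, 5 of 38 tested collagens were called with the empty vector (11.7% of all 20377 genes were), 4 higher (6.5% of all genes) and 1 lower (5.19%). With EWS-FLI1 10 of 38 were called (18.1% of all genes), 6 higher (9.72%) and 4 lower (8.36%). The median log2 fold change of the 38 was -0.0195 (empty vector) and -0.0369 (EWS-FLI1), beside -0.00754 and -0.0152 for all genes. Over the 29 measured collagens alone it was -0.0251 and -0.0847. A call is an adjusted p under 0.05 in edgeR's quasi-likelihood test, with the Benjamini-Hochberg adjustment over all genes tested. The versions of a comparison with each vector share no library, but both use 1 estimate of the spread from all 12 libraries. How many of all genes were called with both vectors was not counted. With GC and length trends removed the calls were 4 higher and 3 lower, and 6 higher and 7 lower, in the same order (19.3% and 24.7% of all genes called). Upper-quartile scaling gave 4 higher and 3 lower with the empty vector. With the empty vector, 8 were called with a replicate block within each vector (17.7% of all genes) or without either WT library of the EWS-FLI1 group, 2 without either library lacking ARID1A, and 3 without repeat 1 of WT. With EWS-FLI1, 6 were called without repeat 1 lacking ARID1A.

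ΔIDR1b against no ARID1A asks the same of the shortened protein. The fibrillar chains COL2A1, COL5A1, COL3A1 and COL1A1, the basement membrane genes COL18A1 and COL4A4 and the FACIT genes COL12A1 and COL14A1 were higher with either vector, and COL4A1, COL4A2, COL4A3 and COL5A3 were with EWS-FLI1 added. COL11A2, COL9A2 and COL27A1 were lower with either vector, and COL7A1 and COL13A1 with EWS-FLI1 added. In the empty-vector libraries 11 of 38 were called (33.3% of all genes), 8 higher (16.4%) and 3 lower (16.8%), and with EWS-FLI1 17 of 38 (35.9% of all genes), 12 higher (18.1%) and 5 lower (17.9%). The 11 called with the empty vector were all among the 17 called with EWS-FLI1, in the same direction, which is 64.7% of the larger list. This overlap was not counted over all genes, so it is not shown to be particular to collagens. The median log2 fold change of the 38 was 0.244 and 0.123, beside 0.00396 and 0.0157 for all genes. Over the 29 measured collagens alone it was lower, at 0.142 and 0.0458. With the trends removed there were 7 higher and 7 lower, and 9 higher and 9 lower (37.5% and 39.8% of all genes called). Of the main calls 10 of 11 and 14 of 17 were kept there, and the medians of the 38 came to 0.094 and -0.001. Without repeat 1 lacking ARID1A the empty-vector count was 5, and without repeat 1 or 2 lacking ARID1A or repeat 2 of ΔIDR1b the EWS-FLI1 counts were 9, 11 and 10.

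ΔIDR1b against WT isolates the deleted segment most closely, and few collagens differed. COL5A1 and COL2A1 were higher with ΔIDR1b under either vector, COL18A1 and COL1A1 with the empty vector, and COL7A1 with EWS-FLI1. With the empty vector 4 of 38 were called (24.5% of all genes), 4 higher (11.1%) and 0 lower (13.4%), and with EWS-FLI1 3 of 38 (18.6% of all genes), 3 higher (8.48%) and 0 lower (10.1%). At an unadjusted p under 0.05 edgeR also gave 0 lower in both. At that p edgeR passed 9 and 6 collagens in either direction, beside 7312 and 6503 of all 20377 genes. The adjusted calls are 10.5% and 7.89% of the collagens tested. The 29 measured collagens had a median log2 fold change of 0.169 and 0.155. That of the 38 was 0.182 and 0.216, beside 0.0124 and 0.00916 for all genes, and 0.042 and 0.087 with the trends removed. In that fit 1 was higher and 2 lower with the empty vector, where COL5A1 alone of the 4 calls remained, and 3 higher and 2 lower with EWS-FLI1, where all 3 remained. That fit called 31.6% and 27.6% of all genes. The lower calls of that fit were COL27A1 and COL6A1 with both vectors. With the block within each vector 7 and 6 were called, all higher (30% and 24.8% of all genes called in either direction). Without repeat 1 of ΔIDR1b the empty-vector count was 1, and without repeat 2 of WT the EWS-FLI1 count was 8. The introduced ARID1A transcript was also more abundant with ΔIDR1b than with WT, and with EWS-FLI1 the FLI1 level was higher with WT (above). Their part in these differences was not tested.

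**Figure D2:**
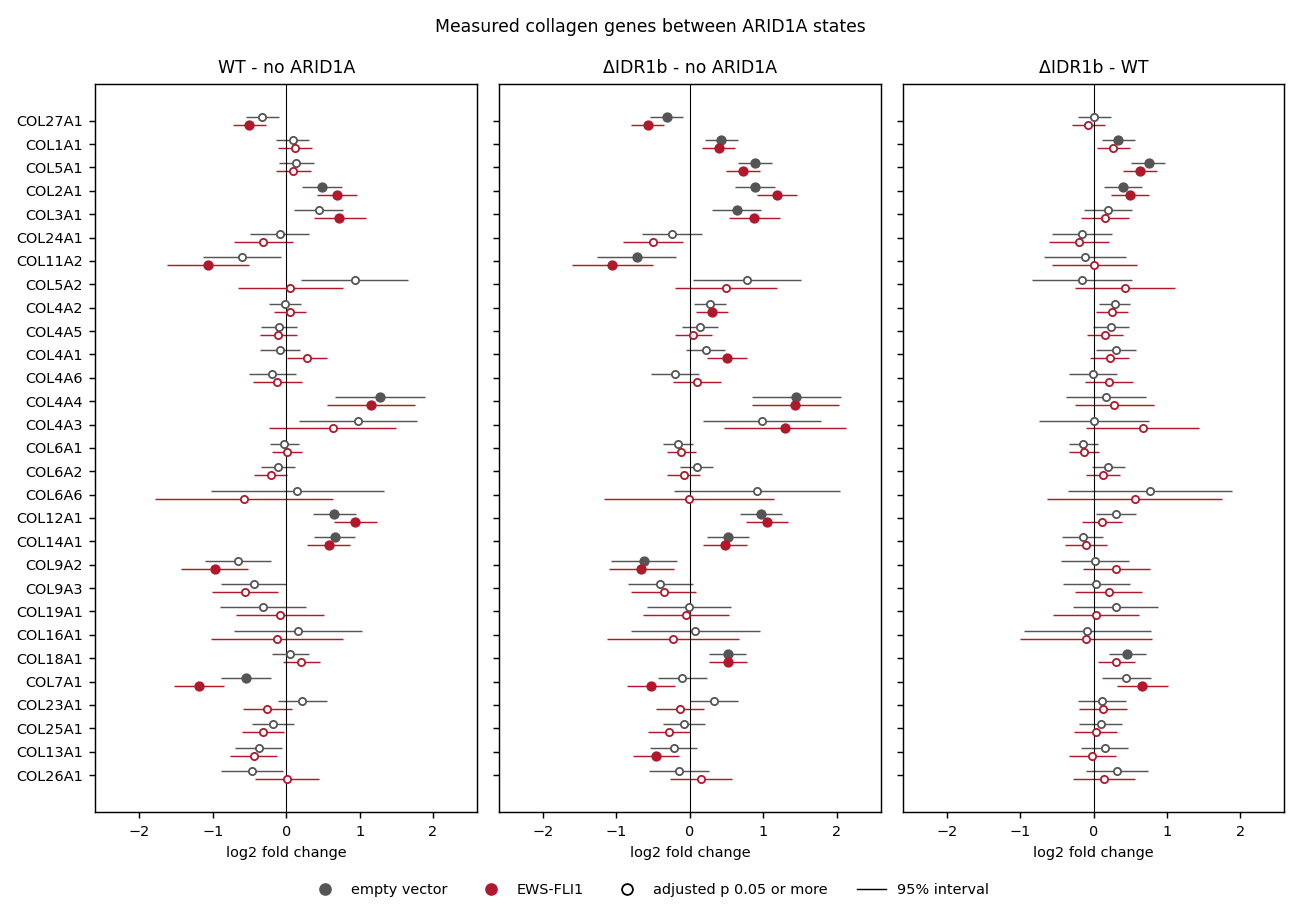
Log2 fold change with 95% interval of each measured collagen gene in the 6 comparisons of ARID1A states, grey for the empty vector and red for EWS-FLI1, filled where the adjusted p is under 0.05. COL4A4 lies furthest to the right in the first 2 panels (1.28 and 1.15, 1.45 and 1.44), and COL5A1 leads the calls in the third with the empty vector (0.75).

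Among the fibrillar genes COL2A1, the chain of cartilage type II collagen (chr12:47972967-48004554, GRCh38, minus strand), had the most calls, being higher in all 6 comparisons. With the empty vector it read 33.0 and 35.0 CPM without ARID1A, 51.0 and 44.5 with WT, and 65.8 and 60.1 with ΔIDR1b. With EWS-FLI1 it read 27.9 and 29.3, 38.6 and 53.8, and 65.2 and 65.4 CPM. The states thus stood in the order no ARID1A, WT, ΔIDR1b with no overlap under either vector. The log2 fold changes against no ARID1A were 0.49 ± 0.138 (SE; adjusted p = 0.0172) and 0.69 ± 0.141 (0.000601) for WT, and 0.89 ± 0.136 (4.6e-06) and 1.19 ± 0.139 (3.18e-08) for ΔIDR1b. ΔIDR1b exceeded WT by 0.40 ± 0.134 (0.0266) and 0.50 ± 0.134 (0.00829). The difference of ΔIDR1b from WT with the empty vector lost its call with the trends removed (log2 0.21, adjusted p 0.11) and without repeat 2 of WT or either ΔIDR1b library. That with EWS-FLI1 lost it without repeat 1 of WT and in a fit of the compared libraries alone (adjusted p up to 0.178), and that of WT from no ARID1A with the empty vector without either library lacking ARID1A or repeat 1 of WT (adjusted p up to 0.22). The differences of ΔIDR1b from no ARID1A were called under every setting run.

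COL5A1 (chr9:134641803-134844843), the main chain of the type V collagen that starts fibrils, separated ΔIDR1b from both other states. It read 52.3 and 52.8 CPM without ARID1A, 61.5 and 54.2 with WT and 102 and 93.1 with ΔIDR1b (empty vector), and 49.3 and 52.4, 49.8 and 58.9, and 79.2 and 88.7 with EWS-FLI1. Every ΔIDR1b library lay above every other library. The log2 fold change of ΔIDR1b was 0.89 ± 0.119 (adjusted p = 4.36e-07) and 0.72 ± 0.12 (1.29e-05) against no ARID1A, and 0.75 ± 0.118 (1.71e-05) and 0.63 ± 0.119 (0.000297) against WT. All 4 calls held under every setting run, with log2 values of at least 0.46. WT against no ARID1A gave no call under either vector. The 250 bases before its RefSeq start (chr9:134641553-134641802, plus strand) are shown because this gene was called higher with ΔIDR1b than with WT under every setting run. Capitals mark GGAA and CCGCCC on either strand (TTCC and GGGCGG on the shown strand are reverse matches).
COL5A1: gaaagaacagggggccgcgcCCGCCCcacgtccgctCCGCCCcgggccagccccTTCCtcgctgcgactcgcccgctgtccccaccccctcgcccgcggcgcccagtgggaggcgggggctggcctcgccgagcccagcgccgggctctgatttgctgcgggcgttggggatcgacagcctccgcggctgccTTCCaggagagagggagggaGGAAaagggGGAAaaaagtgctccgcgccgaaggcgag

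COL3A1, the chain of type III collagen (chr2:188974373-189012746), read 14.9 and 16.8 CPM without ARID1A, 20.0 and 22.9 with WT and 22.8 and 26.3 with ΔIDR1b, and with EWS-FLI1 11.1 and 13.7, 17.7 and 23.2, and 23.4 and 22.2. The libraries lacking ARID1A were the lowest under each vector, and WT and ΔIDR1b lay close together. ΔIDR1b exceeded no ARID1A by log2 0.64 ± 0.171 (adjusted p = 0.00417) and 0.88 ± 0.177 (0.000191), and WT did so with EWS-FLI1 by 0.72 ± 0.179 (0.00403). The first of these lost its call without repeat 1 lacking ARID1A or repeat 2 of ΔIDR1b (adjusted p up to 0.0746). The last lost it without repeat 1 lacking ARID1A or repeat 2 of WT (up to 0.105).

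COL1A1 (chr17:50184101-50201632, minus strand) read 75.5 and 79.5 CPM without ARID1A, 84.7 and 80.5 with WT and 104.4 in both ΔIDR1b libraries, and with EWS-FLI1 74.8 and 78.2, 73.0 and 93.3, and 95.8 and 105.0. ΔIDR1b was highest under each vector, by log2 0.43 ± 0.114 (adjusted p = 0.00375) and 0.39 ± 0.115 (0.00743) against no ARID1A and by 0.34 ± 0.114 (0.0276) against WT with the empty vector. None of the 3 calls held with the trends removed, where the values were 0.19 (adjusted p 0.067), 0.19 (0.0695) and 0.12 (0.291). Each was also lost without at least 1 of the libraries compared: repeat 1 lacking ARID1A in the first, that repeat or repeat 2 of ΔIDR1b in the second, and any of the 4 libraries in the third.

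COL27A1 and COL11A2, fibrillar chains of cartilage and other tissues, moved the other way. COL27A1 (chr9:114155537-114312511) read 127 and 119 CPM without ARID1A, 91.0 and 105 with WT and 101 and 96.3 with ΔIDR1b, and with EWS-FLI1 134 and 136, 82.2 and 109, and 90.3 and 91.1. It was lower with WT under EWS-FLI1 (log2 -0.50 ± 0.115, adjusted p = 0.00211) and with ΔIDR1b under both vectors (-0.32 ± 0.115, 0.0317, and -0.58 ± 0.115, 0.000175). The empty-vector call was lost without any one of the 4 libraries compared (adjusted p up to 0.202), while the EWS-FLI1 calls held under every setting. COL11A2 (chr6:33162681-33192499, minus strand) read 7.14 and 6.96 CPM without ARID1A, 4.09 and 5.16 with WT and 3.80 and 4.72 with ΔIDR1b, and with EWS-FLI1 8.10 and 6.65, 3.69 and 3.34, and 2.97 and 4.10. All libraries lacking ARID1A lay above all others. The log2 fold changes were -1.07 ± 0.284 (adjusted p = 0.00719) for WT with EWS-FLI1, and -0.72 ± 0.275 (0.0406) and -1.06 ± 0.281 (0.00339) for ΔIDR1b. Leaving out repeat 1 lacking ARID1A ended each of these 3 calls, with the EWS-FLI1 values at adjusted p of up to 0.0993. The call of ΔIDR1b with the empty vector was also lost without each other library compared, without the count filter and in DESeq2, and that with EWS-FLI1 without repeat 1 of ΔIDR1b.

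COL5A3 was the only collagen below 1 CPM to be called, in both EWS-FLI1 comparisons with no ARID1A. It had 2 to 7 counts per library without ARID1A and 12 to 24 in the others. It thus passed the count filter only through the groups where it was high, and the filter favoured that direction. It is among the 10 and 17 calls above, of which 9 and 16 were of measured collagens. With EWS-FLI1 its CPM values were 0.256 and 0.173, which are 3 and 2 counts, without ARID1A. They were 0.903 and 1.29 with WT and 1.70 and 1.32 with ΔIDR1b. With so few counts no fold change of COL5A3 is given. The other fibrillar genes measured, COL24A1 and COL5A2, were called in no comparison.

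**Figure D3:**
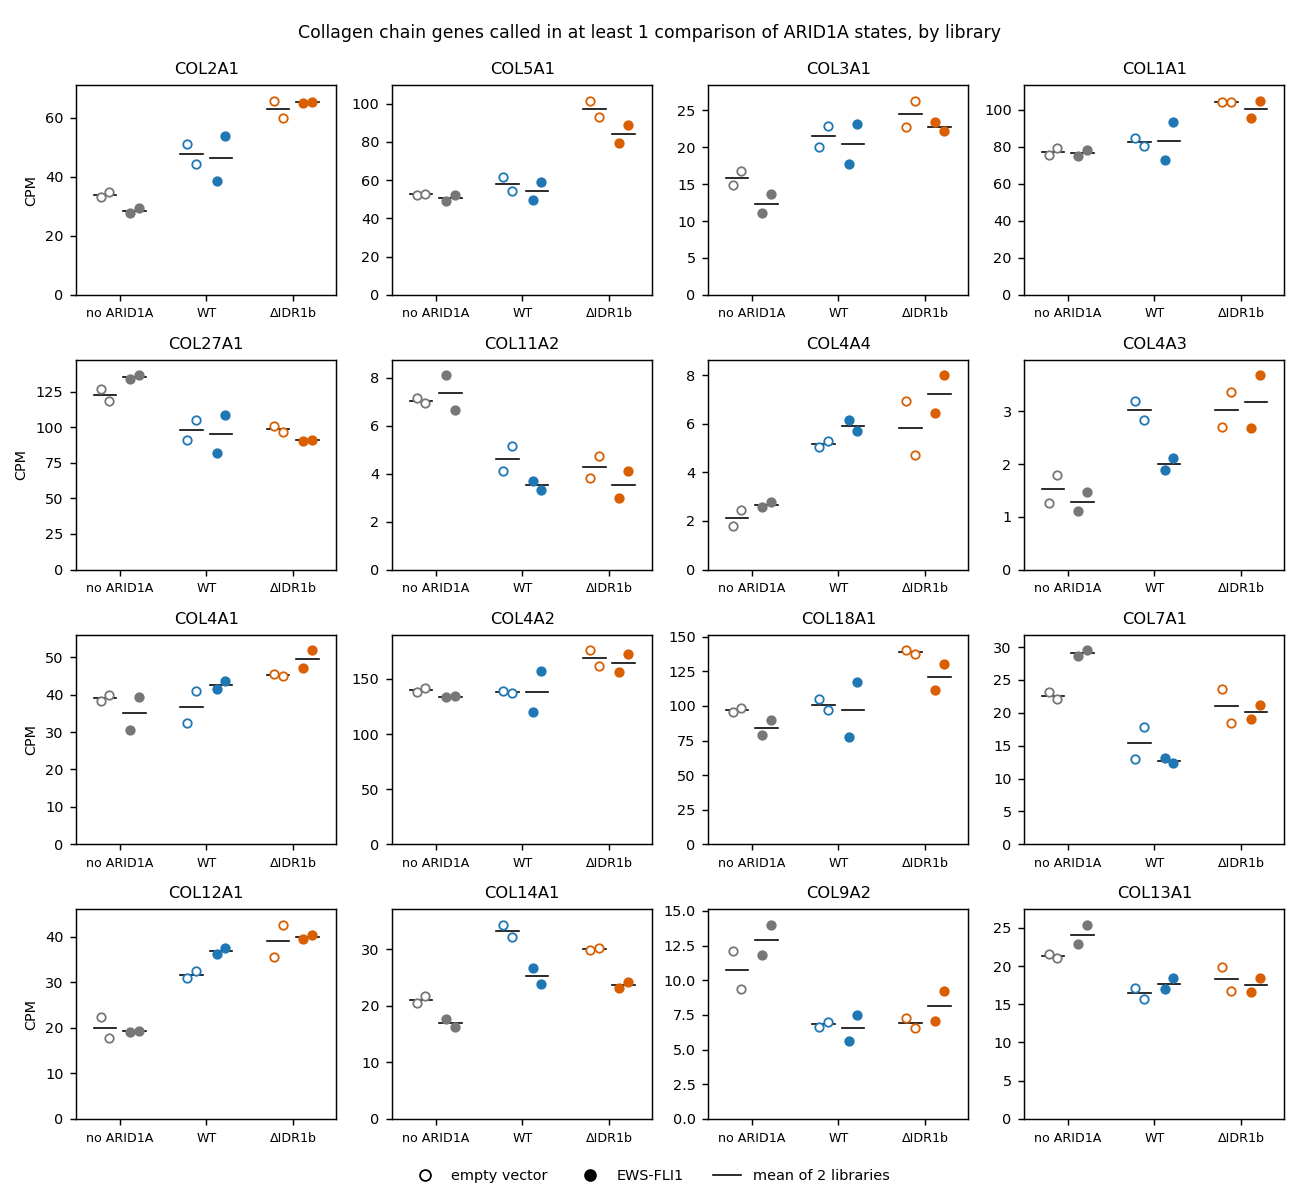
CPM of the 16 measured collagen genes called in at least 1 comparison of ARID1A states, 1 point per library, open for the empty vector and filled for EWS-FLI1, with bars at the mean of 2. COL5A1 lies at 79.2 to 102 CPM with ΔIDR1b and at 49.3 to 61.5 elsewhere, and COL7A1 is lowest with WT (12.4 to 17.9).

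The type IV genes lie in pairs that start close together on opposite strands. The RefSeq starts of COL4A1 and COL4A2 on chromosome 13 are 127 bases apart, and those of COL4A4 and COL4A3 on chromosome 2 are 419 bases apart. The stretches free of exons between these starts are printed because both members of each pair were called higher with ΔIDR1b against no ARID1A under EWS-FLI1 (GRCh38, RefSeq windows, free of exons of GENCODE release 41). The first, chr13:110307158-110307257, is given on the COL4A2 strand. The second is given as its part next to COL4A3 (chr2:227164454-227164623, plus strand) and its part next to COL4A4 (chr2:227164206-227164395, minus strand). Capitals mark the GGAA core, the GC box CCGCCC and the CCAAT box on either strand.
COL4A1 and COL4A2: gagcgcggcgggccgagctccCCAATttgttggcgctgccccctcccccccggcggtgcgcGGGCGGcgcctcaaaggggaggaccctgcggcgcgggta
COL4A3: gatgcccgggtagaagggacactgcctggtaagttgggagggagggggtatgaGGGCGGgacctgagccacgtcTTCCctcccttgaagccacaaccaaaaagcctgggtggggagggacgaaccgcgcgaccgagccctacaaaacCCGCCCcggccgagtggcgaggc
COL4A4: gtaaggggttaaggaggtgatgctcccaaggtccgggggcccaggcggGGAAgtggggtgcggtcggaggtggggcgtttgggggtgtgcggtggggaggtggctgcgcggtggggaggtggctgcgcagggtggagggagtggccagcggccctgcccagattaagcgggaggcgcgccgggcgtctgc

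COL4A4, a chain of the mature kidney's filtration barrier, had the largest fold changes among the measured collagens called higher in the 4 comparisons with no ARID1A. It read 1.78 and 2.47 CPM without ARID1A, 5.06 and 5.30 with WT and 6.95 and 4.72 with ΔIDR1b, and with EWS-FLI1 2.56 and 2.77, 6.17 and 5.69, and 6.44 and 7.99. All 8 libraries with either form of ARID1A exceeded the 4 without it. The log2 fold changes were 1.28 ± 0.312 (adjusted p = 0.00583) and 1.15 ± 0.306 (0.00712) for WT, and 1.45 ± 0.309 (0.000402) and 1.44 ± 0.301 (0.000299) for ΔIDR1b. The ΔIDR1b calls held under every setting, and each WT call was lost without repeat 1 lacking ARID1A (adjusted p up to 0.0929 and 0.0717). Its partner COL4A3, whose exons share 6.8% of their bases with MFF-DT, read 1.26 and 1.80, 3.20 and 2.84, and 2.71 and 3.36 CPM in the same order with the empty vector, and 1.11 and 1.47, 1.88 and 2.12, and 2.69 and 3.68 with EWS-FLI1. Only the difference of ΔIDR1b from no ARID1A with EWS-FLI1 was called (1.30 ± 0.425, adjusted p = 0.0158). It was lost without repeat 1 lacking ARID1A or repeat 2 of ΔIDR1b (up to 0.131). In the other 3 comparisons with no ARID1A it lay between 0.63 and 0.98 with adjusted p from 0.0626 to 0.353.

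COL4A1 and COL4A2, the chains of the basement membrane found in nearly all tissues, were called in the same single comparison. With EWS-FLI1 COL4A1 read 30.6 and 39.4 CPM without ARID1A and 47.2 and 51.9 with ΔIDR1b, a log2 fold change of 0.50 ± 0.138 (adjusted p = 0.00458). COL4A2 read 134 in both libraries without ARID1A and 157 and 173 with ΔIDR1b, a log2 fold change of 0.30 ± 0.11 (adjusted p = 0.033). COL4A2 lost its call with the trends removed (0.18, adjusted p 0.0788) and in DESeq2. Without repeat 1 lacking ARID1A or repeat 2 of ΔIDR1b both calls were lost, and without repeat 2 lacking ARID1A that of COL4A2. With the block within each vector COL4A2 was also called with ΔIDR1b against no ARID1A with the empty vector (0.27, adjusted p 0.0118) and both genes against WT with that vector. COL4A5 and COL4A6, the X-linked pair, were called in none.

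COL18A1 (chr21:45405165-45513720), a basement membrane proteoglycan core, read 96.0 and 98.4 CPM without ARID1A, 105 and 96.8 with WT and 140 and 137 with ΔIDR1b. With EWS-FLI1 it read 79.1 and 89.5, 77.5 and 117, and 111 and 130 CPM. ΔIDR1b exceeded no ARID1A by log2 0.51 ± 0.129 (adjusted p = 0.00219) and 0.52 ± 0.13 (0.00206), and WT by 0.46 ± 0.129 (0.0081) with the empty vector. With the trends removed the last came to 0.19 (adjusted p 0.0688), and it was also lost without repeat 2 of WT or repeat 1 of ΔIDR1b. The EWS-FLI1 call was lost without repeat 1 lacking ARID1A or repeat 2 of ΔIDR1b (up to 0.056). Its exons share 18.5% of their bases with SLC19A1 on the other strand, and the authors' counting set no strand. SLC19A1 stood at 69.8, 86.7 and 80 CPM without ARID1A, with WT and with ΔIDR1b (empty vector), and at 70, 85.6 and 84.7 with EWS-FLI1. The part of shared reads in the COL18A1 values was not tested.

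Among the FACIT genes COL12A1, a fibril-bridging collagen (chr6:75084326-75206267, minus strand), read 22.4 and 17.8 CPM without ARID1A, 31.0 and 32.4 with WT and 35.6 and 42.7 with ΔIDR1b. With EWS-FLI1 it read 19.2 and 19.4, 36.4 and 37.6, and 39.5 and 40.5 CPM. The 4 libraries without ARID1A were the lowest of the 12. WT exceeded them by log2 0.66 ± 0.146 (adjusted p = 0.00277) and 0.94 ± 0.148 (2.13e-05), and ΔIDR1b by 0.96 ± 0.145 (3.37e-06) and 1.05 ± 0.147 (7.86e-07). Of these 4 calls, that of WT with the empty vector was lost without repeat 2 lacking ARID1A (adjusted p 0.12), and the others held under every setting run. ΔIDR1b against WT was not called, with log2 differences of 0.305 (95% interval 0.0297 to 0.58, adjusted p = 0.112) and 0.11 (-0.159 to 0.386, 0.614).

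COL14A1, a FACIT collagen of dense connective tissue, read 20.4 and 21.7 CPM without ARID1A, 34.4 and 32.1 with WT and 29.9 and 30.2 with ΔIDR1b, and with EWS-FLI1 17.7 and 16.3, 26.8 and 24.0, and 23.2 and 24.3. Libraries lacking ARID1A were the lowest under each vector. WT exceeded them by log2 0.66 ± 0.145 (adjusted p = 0.00256) and 0.58 ± 0.151 (0.00636), and ΔIDR1b by 0.51 ± 0.146 (0.00634) and 0.48 ± 0.151 (0.0125). The last was lost with the trends removed (0.33, adjusted p 0.0515) and without repeat 2 lacking ARID1A or repeat 2 of ΔIDR1b. The EWS-FLI1 call of WT was lost without repeat 2 lacking ARID1A, and the empty-vector call of ΔIDR1b without repeat 1 lacking ARID1A.

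COL9A2, a chain of cartilage type IX collagen (chr1:40300489-40317813, minus strand), was lower with either form of ARID1A. It read 12.1 and 9.35 CPM without ARID1A, 6.62 and 7.02 with WT and 7.31 and 6.58 with ΔIDR1b, and with EWS-FLI1 11.9 and 14.0, 5.65 and 7.51, and 7.08 and 9.25. The log2 fold changes called were -0.97 ± 0.23 (adjusted p = 0.00275) for WT with EWS-FLI1, and -0.63 ± 0.228 (0.0323) and -0.66 ± 0.224 (0.0199) for ΔIDR1b. The ΔIDR1b calls were lost in DESeq2, the first also without the count filter, without repeat 1 lacking ARID1A or without either ΔIDR1b library. The EWS-FLI1 call of ΔIDR1b was lost without repeat 2 lacking ARID1A or repeat 1 of ΔIDR1b, and that of WT without repeat 2 lacking ARID1A (adjusted p 0.0552). COL9A3 was lower in the same comparisons by -0.56 to -0.36 but was not called. COL16A1 and COL19A1 were called in none.

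COL7A1, the anchoring-fibril collagen of skin (chr3:48564073-48595329, minus strand), was lowest with WT. Some other measured collagens, COL9A2 and COL9A3 among them, also had their lowest mean with WT under each vector. It read 23.1 and 22.1 CPM without ARID1A, 13.02 and 17.9 with WT and 23.7 and 18.4 with ΔIDR1b, and with EWS-FLI1 28.6 and 29.6, 13.1 and 12.4, and 19.1 and 21.1. Under each vector the WT libraries lay below all others. WT against no ARID1A gave log2 -0.55 ± 0.172 (adjusted p = 0.033) under the empty vector and -1.19 ± 0.175 (7.63e-06) under EWS-FLI1. With EWS-FLI1 ΔIDR1b lay between, at -0.53 ± 0.168 (0.0125) against no ARID1A and 0.66 ± 0.176 (0.0078) against WT. The WT call with EWS-FLI1 held under every setting, and that with the empty vector was lost without either library lacking ARID1A or repeat 1 of WT (up to 0.408). The ΔIDR1b call against no ARID1A was lost without either library lacking ARID1A or repeat 1 of ΔIDR1b (up to 0.112), and that against WT without repeat 2 of ΔIDR1b (0.0706). The 250 bases before its RefSeq start (chr3:48595330-48595579, minus strand) are shown because this gene was called lower with WT under each vector, with GGAA and CCGCCC on either strand in capitals.
COL7A1: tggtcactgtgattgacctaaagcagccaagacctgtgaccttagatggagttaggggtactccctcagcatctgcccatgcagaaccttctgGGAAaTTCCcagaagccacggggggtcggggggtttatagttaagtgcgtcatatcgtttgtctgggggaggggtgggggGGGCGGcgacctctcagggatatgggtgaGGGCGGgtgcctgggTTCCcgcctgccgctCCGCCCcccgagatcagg

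COL13A1, a transmembrane collagen of the neuromuscular junction, was lower with ΔIDR1b against no ARID1A under EWS-FLI1, at 16.6 and 18.4 against 22.9 and 25.4 CPM (log2 -0.46 ± 0.162, adjusted p = 0.0252). That call was lost without any one of the 4 libraries compared (up to 0.191). WT against no ARID1A under EWS-FLI1 gave a like value, -0.45 ± 0.163, that was not called (adjusted p = 0.0533).

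Of the 29 measured genes 13 were called in no comparison of states, among them the most abundant. COL6A1 read from 266 to 349 CPM and COL6A2 from 151 to 236 CPM over the 12 libraries, and the log2 differences between states lay from -0.16 to 0.01 and from -0.21 to 0.20. With the trends removed COL6A1 was lower with ΔIDR1b in all 4 of its comparisons, by -0.36 (adjusted p 6.56e-05) and -0.28 (0.0013) against no ARID1A and by -0.32 (0.000412) and -0.27 (0.00309) against WT. The other 11 were COL4A5, COL23A1, COL25A1, COL4A6, COL26A1, COL24A1, COL9A3, COL19A1, COL5A2, COL16A1 and COL6A6.

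**Figure D4:**
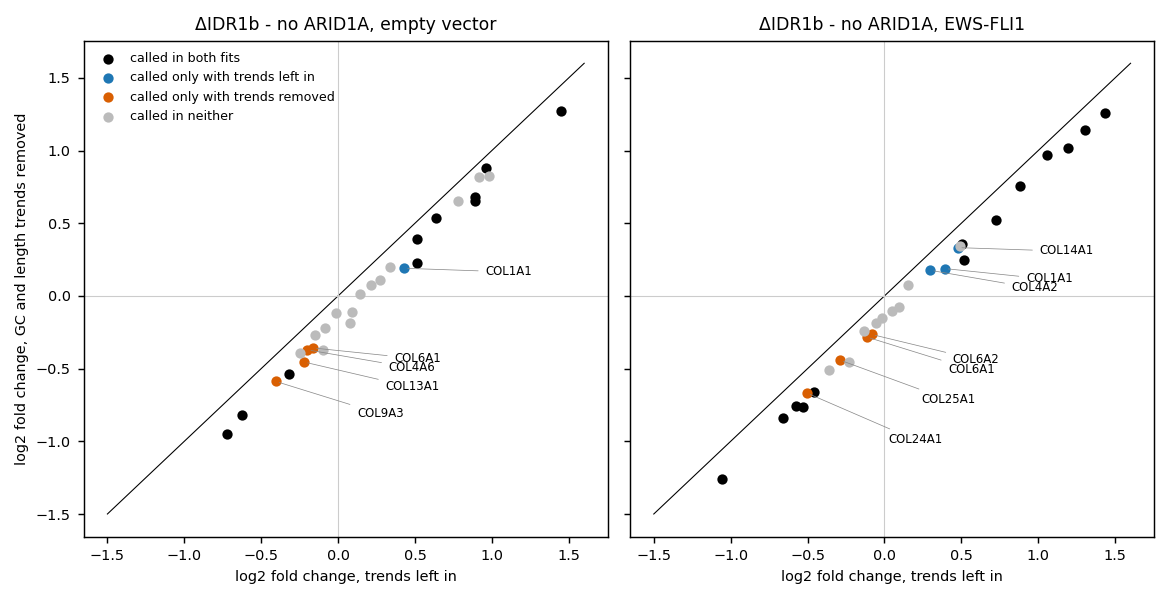
Log2 fold changes of ΔIDR1b against no ARID1A for the 29 measured collagens, with GC and length trends left in (horizontal) and removed (vertical), for the empty vector and EWS-FLI1, with the diagonal as a line. All points lie below the diagonal. COL1A1 lost its call with each vector, and COL6A1 gained one with each.

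EWS-FLI1 against empty vector asks whether the fusion factor moved the collagens in each state, and none was called. COL14A1 came closest, being lower in all 3 states: from 20.4 and 21.7 to 17.7 and 16.3 CPM without ARID1A, from 34.4 and 32.1 to 26.8 and 24.0 with WT, and from 29.9 and 30.2 to 23.2 and 24.3 with ΔIDR1b. Averaged over the states its log2 fold change was -0.35 ± 0.0848 (adjusted p = 0.0529). In edgeR 0 of 38 were called without ARID1A (0.0442% of all genes were), 0 with WT (0.221%), 0 with ΔIDR1b (0.172%) and 0 in the average (0.466%). At an unadjusted p under 0.05 there were 2, 2, 2 and 4 collagens, beside 643, 1331, 1110 and 1610 of all 20377 genes. DESeq2 called 0 collagens in each, but the share of all genes it called is not given, so this cannot be set beside all genes. COL14A1 was called in the average with the trends removed (-0.37, adjusted p 0.00331) and without either WT library with EWS-FLI1. Without repeat 2 of those, COL18A1 and COL6A2 were called lower as well. With the block within each vector the average called COL26A1, COL18A1, COL6A1 and COL6A2, all lower, and ΔIDR1b called COL6A2, while COL14A1 had an adjusted p of 0.141.

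The effect of EWS-FLI1 was also compared between states, which is the study's stated question for these genes. The FLI1 level in the EWS-FLI1 groups differed between the states (above), and its part in these comparisons was not tested. In edgeR and in DESeq2 0 of 38 collagens were called in each of the 3 differences. Of all genes 0.0245%, 0.0196% and 0% were called in edgeR (WT minus no ARID1A, ΔIDR1b minus no ARID1A, ΔIDR1b minus WT). The share of all genes that DESeq2 called in them is not given. Before adjustment 884, 702 and 741 of all 20377 genes had a p under 0.05 in edgeR, and 1, 0 and 0 of the collagens did. The 1 was COL7A1, which read 22.1 to 23.1 CPM without and 28.6 to 29.6 with EWS-FLI1 in cells lacking ARID1A, and 13.02 to 17.9 without and 12.4 to 13.1 with EWS-FLI1 in WT cells. The difference between those effects was -0.64 ± 0.245 on the log2 scale, with an adjusted p of 1 in edgeR.

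Genes that handle collagen were taken as 6 lists and counted with the same calls, and none of these counts was tested against genes at large. Of the 21 genes of modification and folding, ΔIDR1b against no ARID1A called 1 higher and 5 lower in the empty-vector libraries (16.4% and 16.8% of all genes), and 3 and 7 in those with EWS-FLI1 (18.1% and 17.9%). ΔIDR1b against WT called 1 and 6 (11.1% and 13.4% of all genes), and 0 and 4 (8.48% and 10.1%). The list's median log2 fold changes in these 4 comparisons were -0.117, -0.148, -0.0802 and -0.0715, beside 0.00396, 0.0157, 0.0124 and 0.00916 for all genes. With the GC and length trends removed these pairs became 1 and 8, 3 and 10, 1 and 9, and 0 and 7, where 37.5%, 39.8%, 31.6% and 27.6% of all genes were called in either direction. P4HB, a subunit of prolyl 4-hydroxylase, fell from 688 ± 10.3 CPM without ARID1A and 624 ± 34.1 with WT to 453 ± 27.9 with ΔIDR1b (empty vector, SD, n = 2). CRTAP, of the prolyl 3-hydroxylase complex, had 262 ± 11.8, 226 ± 13.5 and 172 ± 7.22 CPM there, and PPIB, a prolyl isomerase, 96.9 ± 4.07, 88.5 ± 17.5 and 62.9 ± 0.231. These 3 were called lower with ΔIDR1b in all 4 comparisons, by log2 -0.62 to -0.38. CREB3L1, a transcription factor of secretory genes, stood at 10.3 ± 1.57, 15.6 ± 0.889 and 26.1 ± 1.74 CPM with the empty vector. It was called higher with ΔIDR1b in each of these comparisons except that against WT with EWS-FLI1. There it stood at 20.25 ± 3.91 with ΔIDR1b and 16.7 ± 3.72 CPM with WT. For WT against no ARID1A the pairs were 1 and 0 (6.5% and 5.19% of all genes), and 2 and 2 (9.72% and 8.36%). They were 2 and 1, and 3 and 4, with the trends removed (19.3% and 24.7% of all genes called in either direction), and 2 and 0, and 3 and 4, with the block within each vector (17.7% and 23.8%).

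In the secretion list of 9 genes, TFG and SEC31A, both of the COPII export machinery, were lower with ΔIDR1b in all 4 comparisons, TFG by log2 -0.69 to -0.61. The counts higher and lower were 2 and 2, and 1 and 2, against no ARID1A (33.3% and 35.9% of all genes called in either direction), and 0 and 3 with each vector against WT (24.5% and 18.6%). With the block the second of these was 3 and 2 (40% of all genes). MIA3 (TANGO1), the receptor that loads collagen into carriers, was higher with ΔIDR1b against no ARID1A, by log2 0.49 ± 0.113 and 0.53 ± 0.114. For WT against no ARID1A the pairs were 2 and 1, and 4 and 0 (11.7% and 18.1% of all genes). The list's medians ran from -0.188 to 0.267 over the 6 comparisons. With the trends removed, ΔIDR1b against no ARID1A gave 1 and 3, and 1 and 2, and against WT 1 and 5, and 0 and 6, while WT against no ARID1A gave 3 and 1, and 5 and 0.

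LOX, a lysyl oxidase that crosslinks collagen, was the member of the processing list of 15 genes that was lower in all 6 comparisons. It stood at 559 ± 10 CPM without ARID1A, 403 ± 31.2 with WT and 264 ± 19.1 with ΔIDR1b with the empty vector, and at 561 ± 38.6, 344 ± 17.9 and 222 ± 71.3 with EWS-FLI1. The log2 fold change of ΔIDR1b against no ARID1A was -1.09 ± 0.126 (adjusted p = 3.26e-08) and -1.34 ± 0.127 (4.22e-10). Its relative LOXL3 ran the other way, at 10.7 ± 1.26, 15.3 ± 1.59 and 22.2 ± 1.23 CPM with the empty vector. The counts of this list, higher and lower, were 0 and 1, and 1 and 2, for WT against no ARID1A (11.7% and 18.1% of all genes called in either direction). They were 3 and 1, and 3 and 2, for ΔIDR1b against no ARID1A (33.3% and 35.9%), and 4 and 1, and 2 and 2, for ΔIDR1b against WT (24.5% and 18.6%). With the block the first was 1 and 3 (17.7% of all genes). The list's medians ran from -0.136 to 0.105. With the trends removed they were 1 and 3, 2 and 2, 2 and 3, 2 and 5, 1 and 2, and 2 and 2 in that order, and LOXL3 was no longer called against WT with the empty vector.

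Of 14 genes of collagen degradation 9 were tested. TIMP3, a matrix-bound protease inhibitor, was highest with WT, at 54.3 ± 0.545, 122 ± 9.4 and 87.6 ± 5.21 CPM without ARID1A, with WT and with ΔIDR1b (empty vector). MMP2, which degrades type IV collagen, stood at 12.9 ± 3.43, 21.8 ± 2.89 and 26.4 ± 2.92. Higher and lower calls were 2 and 1 with each vector for WT against no ARID1A (11.7% and 18.1% of all genes called in either direction). They were 3 and 1 with each vector for ΔIDR1b against no ARID1A (33.3% and 35.9%), and 0 and 2, and 0 and 1, against WT (24.5% and 18.6%). Of 11 collagen receptors 10 were tested, and higher and lower calls were 1 and 0, 0 and 0, 3 and 0, 3 and 0, 1 and 1, and 3 and 0 in the same order, beside the same shares of all genes. With the block the pairs for WT against no ARID1A were 2 and 0 with each vector (17.7% and 23.8% of all genes). ITGA2, the α2 integrin subunit, was higher with ΔIDR1b than with WT (15.7 ± 2.66 against 8.58 ± 1.18 CPM with the empty vector, log2 0.87 ± 0.209). The list of 15 basement membrane partners gave 3 and 2, 3 and 1, 7 and 1, 6 and 1, 4 and 0, and 4 and 0, beside those shares. Over the 6 comparisons the medians ran from -0.0894 to 0.277 for degradation, from -0.00384 to 0.383 for receptors and from 0.0161 to 0.14 for basement membrane partners. LAMA5, the laminin α5 chain, stood at 127 ± 0.114, 138 ± 2.19 and 245 ± 1.64 CPM, and AGRN, a heparan sulfate proteoglycan, at 63.1 ± 3.11, 96.9 ± 5.47 and 165 ± 3.18 CPM. With EWS-FLI1 against empty vector, no gene of the 6 lists was called in any state. With the trends removed, degradation gave 2 and 0, 2 and 0, 3 and 2, 2 and 1, 0 and 3, and 0 and 2, and receptors 2 and 0, 2 and 0, 2 and 0, 2 and 0, 1 and 1, and 2 and 1. The basement membrane partners gave 3 and 2, 4 and 1, 7 and 4, 6 and 1, 4 and 2, and 4 and 3 there, where 19.3%, 24.7%, 37.5%, 39.8%, 31.6% and 27.6% of all genes were called. Of the 135 calls in the 6 lists 123 were kept.

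**Figure D5:**
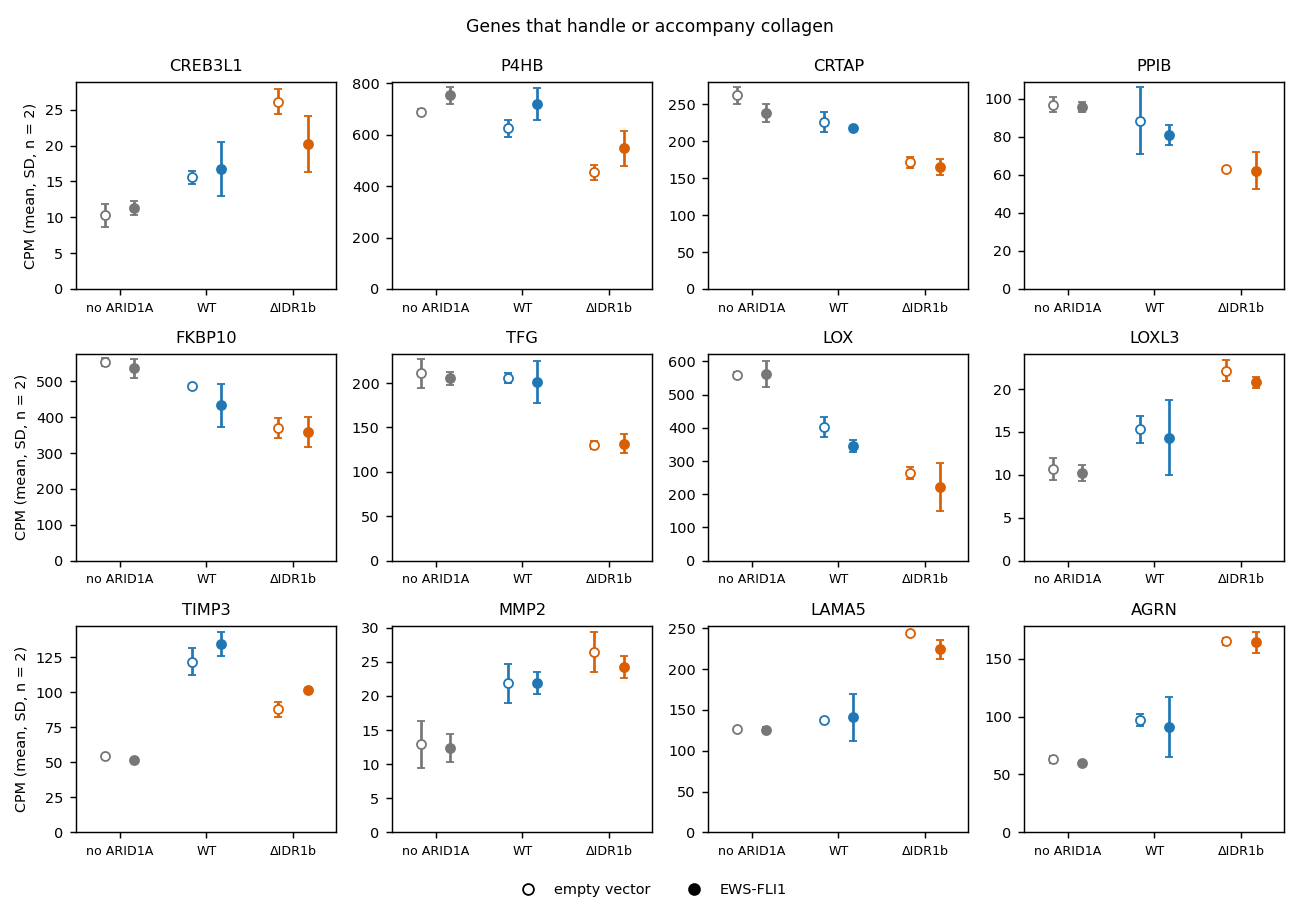
Mean CPM with SD (n = 2) of 12 genes that handle or accompany collagen, open for the empty vector and filled for EWS-FLI1. LOX falls from 559 to 403 and 264 CPM over no ARID1A, WT and ΔIDR1b with the empty vector, and AGRN rises from 63.1 to 96.9 and 165.

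RefSeq promoter windows, from 250 bases before to 50 after a start, were given for 32 of the 44 genes, 44 windows in all, and set beside all 35116 windows of the table. GGAA, the core of ETS sites such as those of FLI1, was present on either strand in 42 of 44 (95.5%, and 95.5% of all windows). GGAA repeated in tandem was in 0 of 44 (3.67% of all windows). TGANTCA, the AP-1 motif, was in 1 (2.27%), a window of COL10A1, against 7.71% of all. CCGCCC, the GC box, was in 24 (54.5%, against 45%), and CCAAT in 14 (31.8%, against 34.6%). These are matches of letters and not tested sites. Windows of 1 gene can overlap, as those of COL5A1 do.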

How the data were processed

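Per the file headers, the authors counted read pairs with featureCounts 2.0.1 on exons of GENCODE release 41 (GRCh38, patch 13) by gene name, with both ends aligned and no strand option, and deposited raw counts per gene. STAR and SAMtools are named in the submitters' processing notes, with versions not given in the sources used here. Genes were kept with edgeR's filterByExpr (10 counts at least, 15 in total, groups as given), leaving 20377 genes. Library sizes were scaled by TMM. CPM and FPKM (over merged exonic length) use the scaled sizes. All 12 libraries entered a quasi-likelihood model of 6 group means (edgeR 4.0.16, limma 3.58.1, R 4.3.3) and 13 contrasts were tested, 2-sided, with Benjamini-Hochberg adjustment over all genes of a contrast at 0.05. An SE is the log2 fold change divided by the square root of F, and 95% intervals are 1.96 SE.

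The alternatives were other scalings, other filters, DESeq2 1.42.0, a fit of the compared libraries alone, replicate blocks, each library left out, and removal of GC and length trends per library with mgcv 1.9.3 (GC from GENCODE 29 transcripts). Equal repeat numbers were checked for pairing. The difference between repeats correlated across 10695 genes at 0.104 to 0.194 between empty-vector groups and at 0.153 to 0.412 between EWS-FLI1 groups, and was below 0 in all 9 pairs across vectors. The block within each vector rests on these correlations, since the labels state no pairing. Deviations also correlated more positively with GC content in repeat 1 than in repeat 2 of every empty-vector group. The reverse held in every EWS-FLI1 group. The part of these GC trends in the correlations between repeats was not tested, so pairing is not established. The block within each vector is given beside a result where it moves a count by over 1.5 times, and for some single calls. Not every collagen gained with it is named. With the block, ΔIDR1b against no ARID1A gave 10 higher and 3 lower with the empty vector (37.6% of all genes called). It gave 12 and 6 with EWS-FLI1 (40%). WT against no ARID1A with EWS-FLI1 gave 6 and 5 (23.8%). All main collagen calls of these comparisons were kept. Repeats differed by more than sampling noise in every group (chi-square per degree of freedom 3.02 to 12.1).

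On simulated data with 19497 genes, 200 of them changed by a log2 of 1 in WT, the fit recovered 81% and 80.5% for WT against no ARID1A (empty vector, EWS-FLI1) and 79% for ΔIDR1b against WT (empty vector), with 17, 7 and 7 other calls. In the difference between WT and no ARID1A in the effect of EWS-FLI1, where nothing was changed, it made 0 calls.

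Any measured collagen could be named. Values per library are given for those called with each vector in at least 1 comparison of states. Collagens below 1 CPM were named where a count was 5 or fewer. Up to 3 higher and 3 lower genes of each list could be named per comparison. The genes, lists and tests were chosen with earlier results of these data known. Sequences are from RefSeq promoter windows (GRCh38, patch 14), whose chromosome coordinates the patches do not change, and hold no exon of GENCODE 41.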

Additional observations from a re-analysis of the deposited data

How the results depend on the processing

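Of 129 counts of called collagens under other scalings, filters, tools, blocks and trend removal, 120 stayed within 1.5 times the main count, 9 moved, and no called gene reversed. With the replicate block within each vector the counts moved to 1 for EWS-FLI1 with ΔIDR1b (main 0), 4 for the average effect of EWS-FLI1 (0), 8 for WT against no ARID1A with the empty vector (5), and 7 and 6 for ΔIDR1b against WT (4 with empty vector, 3 with EWS-FLI1). The block changed no other count by over 1.5 times. With GC and length trends removed they moved to 1 for the average effect and 5 for ΔIDR1b against WT with EWS-FLI1, and with the block added to 9 for WT against no ARID1A with the empty vector and 5 for ΔIDR1b against WT with EWS-FLI1. The cause was not tested. Leaving out each library in turn gave 0 to 3 calls for the average effect of EWS-FLI1, 2 to 8 and 6 to 12 for WT against no ARID1A with the empty vector and EWS-FLI1, 5 to 13 and 9 to 18 for ΔIDR1b against no ARID1A, 1 to 6 and 2 to 8 for ΔIDR1b against WT, and 0 in the other contrasts. Where this leaves 1 library in a group, that library is assumed to vary like the others. For these fits, and for upper-quartile scaling, the share of all genes called is not given here or in the paragraphs above. Whether the collagen counts moved more than those of all genes therefore cannot be read from them. Of 48 calls of measured collagens 18 held under every setting run. Depth limits the 15 collagens below 1 CPM, of which 6 could not be tested and COL5A3 alone was called.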
